A study of Ursus arctos with 5 samples.

Results

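Solute carriers are the membrane proteins that move sugars, amino acids, organic cations, ions, metals and other small molecules across the plasma membrane and the membranes of organelles. All transcripts whose gene name begins with SLC and a number were taken from the deposited RNA-seq table of grizzly bear gastrocnemius, a calf muscle, except the SLC25 carriers, which reside mainly in mitochondria. This gave 101 transcripts of 56 genes, of 26614 transcripts in all, 9093 of which carry a gene name and stand for 4873 genes. The rule left out 27 SLC25 transcripts of 17 genes. The names were given by similarity to human proteins, and 49 of the 56 were found among the names of the bear annotation of RefSeq. The 7 not found were SLC10A3, SLC16A1, SLC22A18AS, SLC22A5, SLC26A6, SLC47A1 and SLC6A8. What is said of these genes below rests on the human name alone. Among the 56 names, SLC4A1AP, which encodes a protein that binds a carrier, and SLC22A18AS, an antisense partner of a carrier gene, are not carriers. They stay in the counts of members below.

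The question was which carriers differ between hibernating and active muscle. Biopsies came from 2 captive bears, Tia and Star, in October, when they were active and fed, and again in February, when they hibernated without food, and each bear gave a single-end Illumina library in either state, 4 in all. The labels call both bears adults of 10 years, whereas the study's text speaks of a subadult and an adult and its supplement lists the values of Tia under the subadult. Season, fasting, inactivity and a different anesthetic dose come together in this design and cannot be told apart. Values are RPKM, that is, read counts divided by the length of the transcript and by the aligned reads of the library, and a change is the difference of log2(RPKM + 0.5), hibernating minus active, which understates the change of low transcripts. With 2 libraries a state, an exact permutation test of a single value cannot go below 0.333 (two-sided), so p-values come from limma's test fitted across all 9093 annotated transcripts.

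Carriers set what a muscle fibre can take up and release. GLUT4, the product of SLC2A4, carries glucose into fibres in response to insulin and contraction, and the SLC38, SLC7 and SLC43 families move amino acids that feed protein synthesis. The sodium, chloride and bicarbonate carriers of the SLC4 and SLC12 families keep cell volume and pH, and the SLC30 and SLC39 families move zinc in opposite directions.

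The steps between low values correspond to 44.7 to 54.2 M (mega) aligned reads per library. The values of members rest on 23 to 93419 reads, with medians of 350 to 610 reads per library, and 14 of the 56 genes have under 100 reads in at least 1 library. The table lists transcripts with 1 RPKM or more in each library, and carriers below that level somewhere were not analysed here. The muscle markers MYH1, MYH2, MYH7 and TTN were present, 4 of 9 on the list, with summed levels of 9467 and 12938 RPKM in the hibernating and 11376 and 13731 in the active muscle of Tia and Star. The other muscle markers listed, ACTA1, CKM, DES, MB and PYGM, were not among the annotated transcripts, although the tissue is muscle. A marker missing here therefore does not show that its cell type was absent. No blood marker of 5 was among the annotated transcripts. Fat cells had 1 of 6 markers and not the defining ADIPOQ or PLIN1. This was LPL, which muscle fibres express too, at 63.4 and 19.8 RPKM in the hibernating and 120 and 18.8 in the active muscle of Tia and Star. Endothelium had 1 of 6 markers, PECAM1, at 10.8 and 11.6 against 13 and 7.53 RPKM, and nerve 1 of 5, S100B, at 2.12 and 3.44 against 13.1 and 1.19 RPKM. The macrophage marker CD68, 1 of 6 on its list, was at 6.41 and 7.12 RPKM in the hibernating and at 3.94 and 3.28 in the active muscle. Connective tissue had 3 of 6 markers. COL3A1 (254 and 210 against 116 and 136 RPKM) and COL1A2 (4 and 3.59 against 2.59 and 3.15 RPKM) were higher in hibernation without overlap, whereas COL1A1 was at 193 RPKM in the active muscle of Tia and at 6.79 to 11 in the other libraries. The active muscle of Tia thus held the highest COL1A1, LPL, PECAM1 and S100B, but the lowest COL3A1 and COL1A2, and its CD68 was not the highest. Among carriers it held the highest SLC22A3, SLC19A2, SLC38A5 and SLC16A1 and the lowest SLC10A3, SLC23A3 and SLC39A1. The part of these other cells in the changes below was not tested, and in bulk muscle fewer cells of a type cannot be told apart from less RNA per cell.

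No carrier passed limma's test after adjustment, as was so for all annotated transcripts (0 of 9093). At an unadjusted p under 0.05, 7 of the 101 transcripts were called, 4 higher and 3 lower in hibernation, or 6.93%, beside 9.08% of annotated transcripts (7.19% higher and 1.89% lower). By gene the count was 7 of 56, beside 9.50% of all genes. The transcripts that were higher belong to SLC10A3, SLC23A3, SLC26A6 and SLC39A1 and those that were lower to SLC12A2, SLC19A2 and SLC22A3. With the animal as a block the count was 12, beside 13.5%. The calls that the block added were all lower and carry the names SLC38A4 and SLC38A5, though none is the most covered transcript of its gene. With median-ratio scaling the count was 13, beside 6.91%. The split then turned to 1 higher (SLC23A3, beside 3.10%) and 12 lower (beside 3.81%), so that SLC10A3, SLC26A6 and SLC39A1 were no longer called. Leaving out 1 library gave 2 calls without the active muscle of Tia (beside 4.49%), 15 without the hibernating (beside 16.2%) and 18 without the active muscle of Star (beside 8.05%). The second measure was a score modelled on NOISeq, the method of the study, which sets each change against the differences between the bears within a state. It reached the threshold of 0.8 for 3 transcripts, all lower (SLC19A2, SLC22A3 and 1 of SLC38A4), beside 3.61% of annotated transcripts (2.10% higher and 1.51% lower), and for 5 with median-ratio scaling, beside 3.57%. A change of at least 1.5-fold in both bears was found higher in 2 transcripts, beside 3.55%, and lower in 4, beside 1.04%.

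Fewer carriers than the share among all genes were higher in hibernation, and more were lower, a description that was not tested. With a gene read by its most covered transcript, 14 of the 56 carrier genes (25.0%) were higher in hibernation in both bears, beside 48.7% of all genes, and 20 (35.7%) were lower in both, beside 16.1%. Counted in each bear alone, 36 (64.3%) were lower in Tia and 26 (46.4%) in Star, beside 39.4% and 27.8%. In 16 genes the level was lower in Tia and higher in Star and in 6 the reverse, beside 23.4% and 11.8% of all genes. The median change of the carrier genes was -0.13 (-0.23 in Tia and 0.02 in Star), while that of all genes was 0.15 (0.13 and 0.17). Scaling by the median ratio moved the median of all genes from 0.15 to 0.00 and that of the carriers to -0.28, and 10 carriers were then higher and 29 lower in both bears, beside 30.4% and 31.2% of all genes. Both hibernating values lay above both active values for 12 carrier genes, beside 35.8% of all genes, and below them for 10, beside 8.11%. With median-ratio scaling these counts were 8 and 20, beside 20.4% and 17.1%. Over transcripts they were 21 and 18, beside 34.6% and 8.80%, and 8 and 30 with median-ratio scaling, beside 19.0% and 18.1%.

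**Figure D1:**
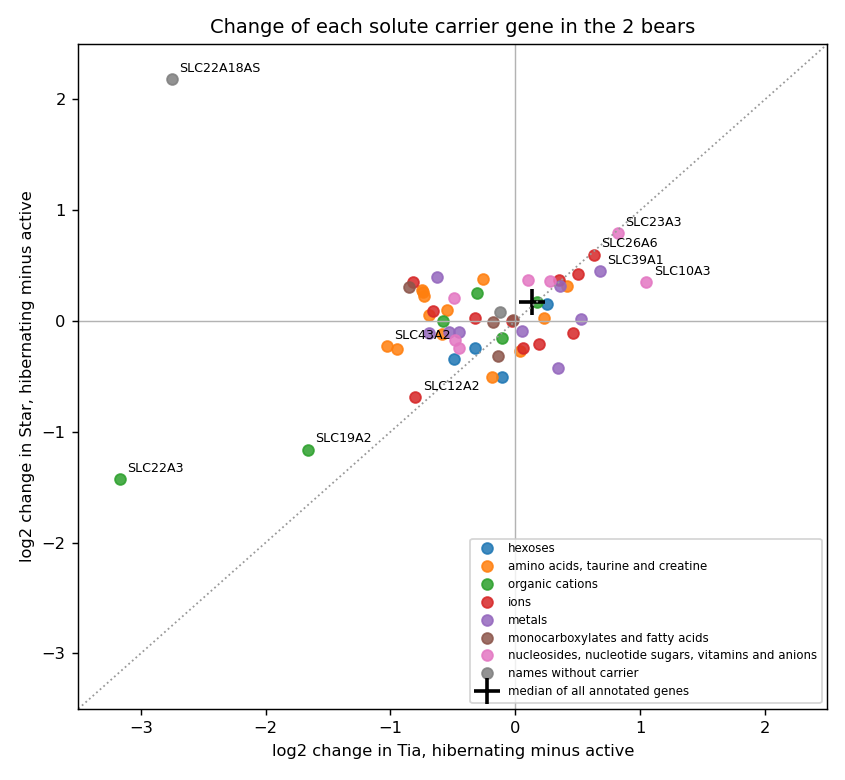
Log2 change, hibernating minus active, of the 56 carrier genes in Tia (horizontal axis) and Star (vertical axis), 1 point per gene coloured by substrate class, with equal change on the dotted line and the median of all annotated genes as a cross. SLC22A3 and SLC19A2 lie apart at the lower left, SLC22A18AS lies apart at the upper left, and 36 of the points are left of 0 in Tia.

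The hibernating muscle of Tia held the lowest of the 4 values for 23 of the 56 carrier genes (41.1%), beside 22.3% of all genes. Most carriers are low: 46 of the 56 genes had a mean RPKM under 10. Among the 33 carriers with a mean RPKM under 5, 23 were lower in hibernation in Tia (69.7%, beside 44.8% of the 2486 genes at that level) and 18 in Star (54.5%, beside 30.1%). Among the 23 carriers at a mean of 5 or more, 13 were lower in Tia (56.5%, beside 33.9%) and 8 in Star (34.8%, beside 25.5%). The share of carriers lower in hibernation was above that of all genes at both levels and in both bears.

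**Figure D2:**
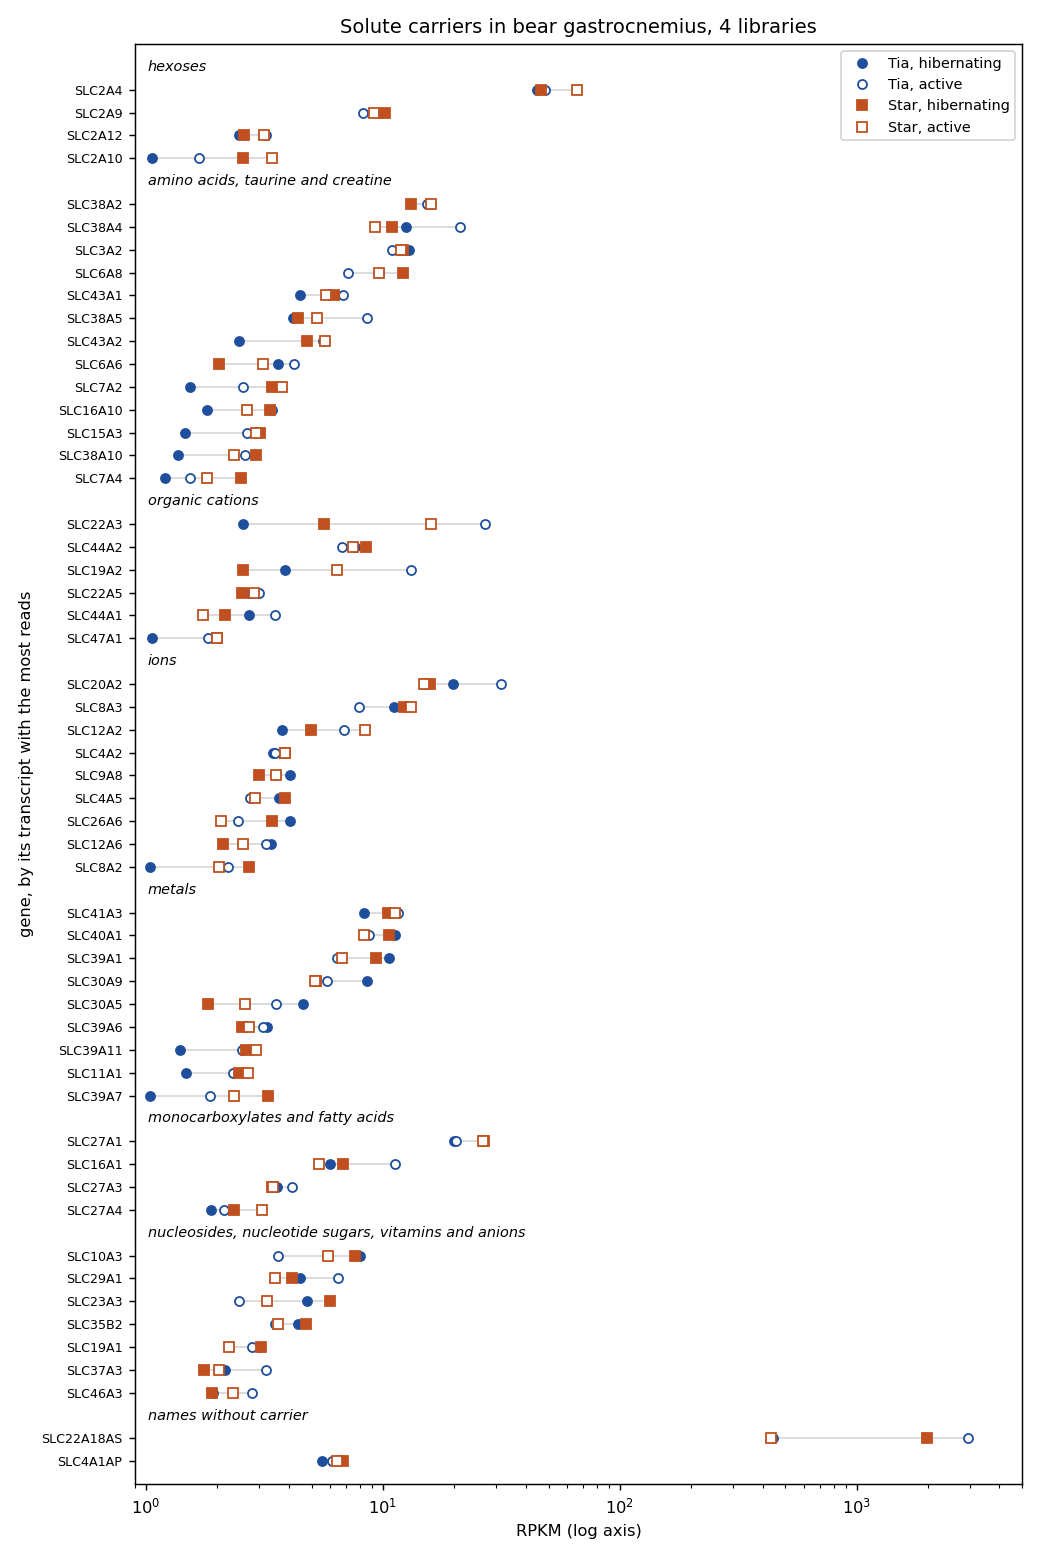
RPKM of 54 of the 56 genes in the 4 libraries on a log axis, by substrate class and, within a class, from the highest mean down. Filled symbols are hibernating and open symbols active muscle, circles are Tia and squares are Star, and the grey line joins the lowest and highest value. SLC2A4 is the highest carrier, and most genes lie between 1 and 10 RPKM.

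Hexose carriers numbered 4, of which 3 were lower and 1 was higher in hibernation in both bears, with a class median of -0.29. The counts of this class and of those below stand beside 48.7% of all genes higher and 16.1% lower in both bears, with a median of 0.15. SLC2A4, the insulin-responsive glucose carrier GLUT4, had the highest level of all carriers, 44.9 and 46.4 RPKM in the hibernating and 48.4 and 66.2 in the active muscle of Tia and Star. Both hibernating values were below both active ones, but the gap between the higher hibernating and the lower active value was small. The change was -0.11 in Tia and -0.51 in Star, with a mean of -0.31 ± 0.24 (SE, adjusted p = 0.698), and -0.08 without the active muscle of Star.

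SLC2A12, which encodes the glucose carrier GLUT12, was at 2.47 and 2.59 RPKM in hibernating and 3.21 and 3.14 in active muscle. Its values did not overlap either, at a change of -0.28 ± 0.21 (adjusted p = 0.688). SLC2A10, a gene for a further facilitative glucose carrier, had 1.06 and 2.58 RPKM in hibernation and 1.68 and 3.39 in activity, so that the bears differed more than the states. SLC2A9, whose product carries urate and hexoses, was the exception with 9.84 and 10.2 RPKM in hibernation against 8.21 and 9.16, a change of 0.20 ± 0.21 that turned to -0.06 in Star with median-ratio scaling.

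The machinery that brings GLUT4 to the surface was represented by 10 of the 15 genes listed. Of these, 4 were higher and 1 lower in both bears, beside 48.7% and 16.1% of all genes. In limma's test 2 had an unadjusted p under 0.05, both higher, beside 7.84% of all genes that were higher at this p. VAMP2, a vesicle protein of the fusion with the surface, was at 37.3 RPKM in both hibernating libraries and at 19.7 and 24.2 in the active ones, a change of 0.76 ± 0.22. SORT1, which encodes the sorting receptor sortilin, was at 14.5 and 13.3 RPKM against 9.50 and 9.63, a change of 0.51 ± 0.20. Neither passed after adjustment (adjusted p = 0.541 and 0.549). TBC1D4, the Rab regulator also called AS160, had 5.99 RPKM in both hibernating libraries and 7.30 and 6.87 in the active ones, at a change of -0.22 ± 0.21.

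Amino acid carriers formed the largest class, with 13 genes and 28 transcripts. Hibernating muscle had more of 2 of these genes and less of 4 in both bears, while 7 went in opposite directions. The class median was -0.59 in Tia and 0.05 in Star, and 10 of the 13 points of Tia lie left of 0 in the plot by class. No gene of the class had an unadjusted p under 0.05 when read by its most covered transcript, but with median-ratio scaling SLC38A5 and SLC43A2 were lower at this p, 2 of the 5 carriers so called, beside 3.28% of all genes.

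**Figure D3:**
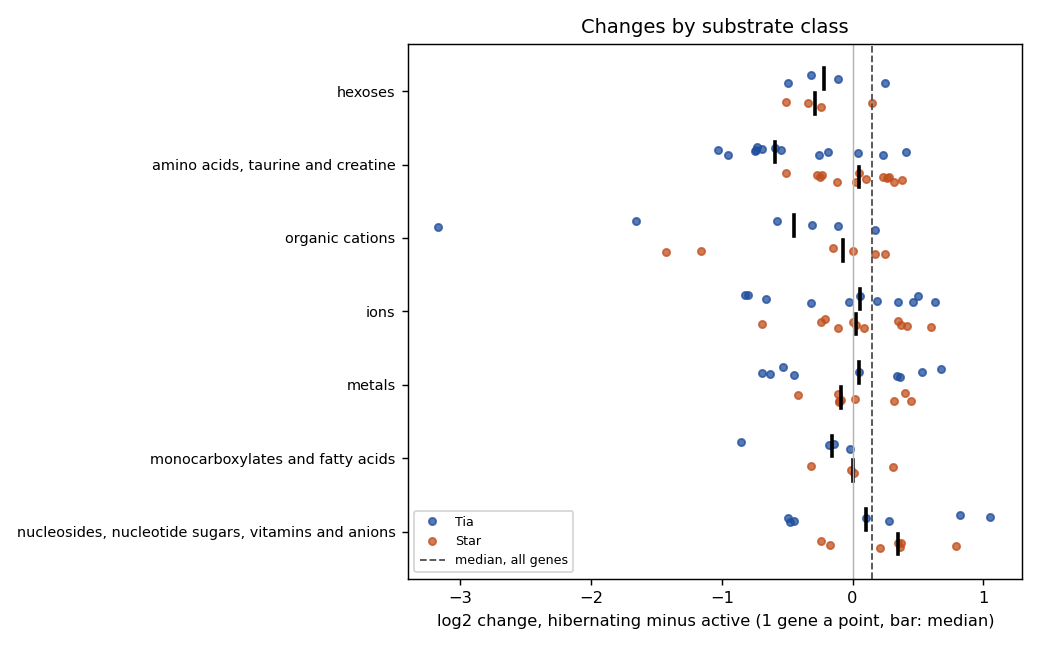
Log2 change, hibernating minus active, of each carrier gene by substrate class, 1 point per gene and bear, with the median of each class and bear as a black bar and the median of all annotated genes (0.15, mean of both bears) as a dashed line. For amino acids the median is -0.59 in Tia and 0.05 in Star, and the most negative points are those of 2 organic cation carriers.

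SLC43A2 and SLC38A5 had the largest declines of the class. SLC43A2 encodes LAT4, a facilitative carrier of large neutral amino acids, and was at 2.48 and 4.78 RPKM in hibernating and 5.57 and 5.68 in active muscle. Its states did not overlap, with a change of -0.63 ± 0.32 (adjusted p = 0.604), and -0.21 without the hibernating muscle of Tia. SLC38A5, a carrier of glutamine and other small neutral amino acids, was at 4.19 and 4.37 RPKM in hibernation against 8.57 and 5.28. The change was -0.95 in Tia and -0.25 in Star (-0.60 ± 0.28, adjusted p = 0.584), and -0.27 without the active muscle of Tia, which was the high library.

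SLC38A4, another sodium-coupled carrier of the family, had 5 transcripts whose changes ranged from -1.05 to -0.73 in Tia and from -0.62 to 0.23 in Star. The most covered of them was at 12.5 and 10.9 RPKM in hibernating and at 21.1 and 9.25 in active muscle, so that the states overlapped. The transcript contig07024, at 7.06 and 3.79 RPKM against 15.1 and 6.11, was the one with a score above 0.8 (0.815). Its states overlapped too, though it was lower in hibernation in each bear, with changes of -1.05 in Tia and -0.62 in Star. The transcripts isotig07293 and isotig07294 carry the name SLC38A4 but changed by -0.92 in Tia and by -0.38 and -0.39 in Star, close to the 6 transcripts of SLC38A5 (-0.95 to -0.93 in Tia and -0.33 to -0.24 in Star). In number, isotig07293 and isotig07294 directly follow isotig07287 to isotig07292 of SLC38A5, and which of the genes they belong to is uncertain. The handling of reads with several matches is not given, so the levels of these related genes are uncertain too. SLC38A2, the widely expressed system A carrier SNAT2, had 15.9 and 13.1 RPKM in hibernation against 15.4 and 15.9.

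SLC6A8 stood on the other side of the class. It encodes the creatine carrier of muscle and was at 9.63 and 12.2 RPKM in hibernating and 7.12 and 9.64 in active muscle. Each bear was higher in hibernation, yet the hibernating value of Tia was just below the active value of Star. The change was 0.37 ± 0.25 (adjusted p = 0.672), and the 4 transcripts of the gene gave 0.40 to 0.41 in Tia and 0.32 to 0.47 in Star. SLC6A6, the taurine carrier of the same family, was at 3.61 and 2.04 RPKM in hibernation and 4.20 and 3.12 in activity, a change of -0.35 ± 0.31.

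SLC3A2 encodes the heavy chain 4F2hc, the partner of several SLC7 light chains at the plasma membrane. It was at 12.9 and 12.2 RPKM in hibernation against 10.9 and 11.9, a change of 0.13 ± 0.20 that was -0.03 with median-ratio and -0.07 with upper-quartile scaling. SLC7A2, a carrier of cationic amino acids such as arginine, had 1.54 and 3.42 RPKM in hibernation and 2.56 and 3.74 in activity, where the bears differed more than the states. SLC43A1, the LAT3 gene, and SLC16A10, a carrier of aromatic amino acids, were among the genes that were lower in Tia and higher in Star. SLC43A1 changed by -0.55 and 0.10 and SLC16A10 by -0.75 and 0.28, with adjusted p = 0.765 and 0.788.

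Organic cation carriers held the 2 largest declines of all carrier genes. Of 6 genes, 4 were lower and 1 was higher in both bears, and the class median was -0.21 over genes. Over the 12 transcripts it was 0.17, because 6 of them belong to SLC44A2. SLC22A3 encodes OCT3, a low-affinity carrier of monoamines and other organic cations, and SLC19A2 a carrier of the vitamin thiamine.

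SLC22A3 was at 2.57 and 5.62 RPKM in the hibernating and 27.1 and 16 in the active muscle of Tia and Star. The lower active value was thus well above both hibernating values, and the hibernating value of Tia rests on 412 reads. Its mean change of -2.30 ± 0.42 was the 4th lowest of the 4873 genes (adjusted p = 0.541). The change was -3.17 in Tia and -1.43 in Star. Without the hibernating muscle of Star the adjusted p was 0.00246, the 1 adjusted call of a member under any alternative, in a setting where 1.01% of all annotated transcripts passed, and over the other alternatives it ranged from 0.154 to 0.838.

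The genes whose 4 log2 values lay nearest to those of SLC22A3 after centring were SESN1, NRG2 and ARID5B, by Euclidean distance over the 4 libraries (0.715, 0.822 and 0.823 among 4872 genes). SESN1, a stress-induced inhibitor of mTORC1, was at 5.81 and 8.10 RPKM in hibernation and 27.8 and 21.7 in activity. NRG2, a ligand of ErbB receptors, had 28.8 and 53.7 RPKM against 132 and 97.6, and ARID5B, a DNA-binding cofactor, 2.89 and 2.69 against 15.9 and 11.6. They were chosen for this likeness, so their shared direction is no further result.

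SLC19A2 was at 3.85 and 2.57 RPKM in hibernating and 13.2 and 6.38 in active muscle. The states did not overlap and the decline was seen in each bear, -1.66 in Tia and -1.16 in Star. The mean change of -1.41 ± 0.39 was the 17th lowest of all genes (adjusted p = 0.541), and it was -0.91 without the active muscle of Tia. Its score was 0.911 and that of SLC22A3 0.963.

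**Figure D4:**
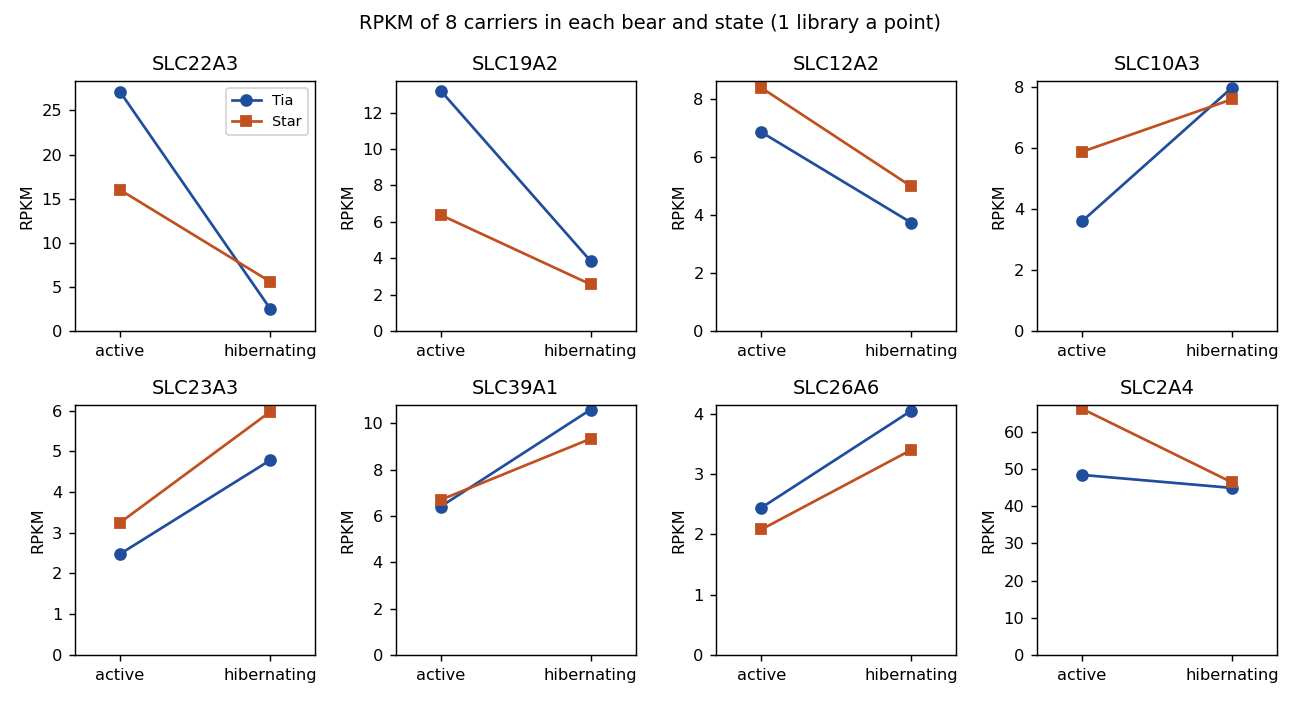
RPKM of 8 carrier genes in active and hibernating muscle, 1 panel per gene with an axis from 0, 1 line per bear and 1 library per point (Tia circles, Star squares). SLC22A3, SLC19A2 and SLC12A2 decline in both bears, SLC10A3, SLC23A3, SLC39A1 and SLC26A6 increase in both, and SLC2A4 declines mainly in Star.

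The other organic cation carriers differed less. SLC22A5, the gene of the carnitine carrier OCTN2, was at 2.76 and 2.54 RPKM in hibernating and 3.01 and 2.87 in active muscle, a change of -0.13 ± 0.21. SLC44A2, a choline carrier-like protein, was at 7.60 and 8.48 RPKM against 6.71 and 7.47, and its 6 transcripts changed by 0.16 to 0.19 in Tia and by 0.16 to 0.25 in Star. With upper-quartile scaling its change turned from 0.17 to -0.02. SLC44A1, a choline carrier, had 2 transcripts that went in different directions in Tia (-0.31 and 0.56).

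Ion carriers showed no common direction, with 3 of 11 genes higher and 2 lower in both bears and a median of -0.02. SLC12A2 encodes NKCC1, which brings sodium, potassium and chloride into the cell. It was at 3.74 and 4.99 RPKM in hibernating and 6.86 and 8.39 in active muscle, without overlap. The declines of -0.80 in Tia and -0.69 in Star were close, and the mean was -0.74 ± 0.25 (adjusted p = 0.546).

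SLC26A6, an exchanger of chloride, bicarbonate and oxalate, was at 4.05 and 3.40 RPKM in hibernating and 2.44 and 2.08 in active muscle. Both bears increased by nearly the same amount, 0.63 and 0.60, and the mean was 0.61 ± 0.22 (adjusted p = 0.549). Its transcript of 537 bases gave only 50 to 109 reads per library. SLC4A5, a sodium bicarbonate cotransporter, was at 3.64 and 3.88 RPKM in hibernation against 2.76 and 2.89, again without overlap.

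Other ion carriers went in different directions in the bears or hardly differed. SLC20A2, the phosphate carrier PiT-2, was at 19.8 and 15.8 RPKM in hibernating and 31.6 and 14.9 in active muscle, and changed by -0.66 in Tia and 0.09 in Star. SLC8A3, a sodium-calcium exchanger, was at 11.1 and 12.3 RPKM against 7.92 and 13.2, with 0.46 in Tia and -0.11 in Star. The anion exchanger SLC4A2 (AE2) was at 3.43 and 3.88 RPKM against 3.52 and 3.88, and its 3 transcripts ranged from -0.03 to 0.33 in Tia and from -0.18 to 0.00 in Star.

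The sodium-potassium pump provides the gradient that many of these carriers use. Of 9 genes listed, 7 were present, and none had an unadjusted p under 0.05 in limma's test. ATP1B3, a beta subunit, was the 1 gene whose states did not overlap, at 3.81 and 3.14 RPKM in hibernation against 2.76 and 2.51. Of 11 chaperones and kinases of carriers, 3 were present, each with more RNA in hibernation in Tia as in Star, beside 48.7% of all genes. NEDD4L, a ubiquitin ligase of channels and carriers, was at 10.6 and 14.5 RPKM against 6.95 and 8.74, a change of 0.64 ± 0.26. Its unadjusted p in limma's test was under 0.05, beside 7.84% of all genes that were higher at this p. The kinases WNK1 and WNK4, which act on the SLC12 cotransporters, changed by 0.42 ± 0.22 and 0.20 ± 0.22. WNK4 hardly differed in Tia (7.47 RPKM in hibernation against 7.42, a change of 0.01), and its change in Star was 0.39.

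Metal carriers were also mixed, with 3 genes higher, 3 lower and 3 opposite among 9 and a median of -0.04. SLC39A1 encodes ZIP1, which brings zinc into the cell, and was at 10.6 and 9.34 RPKM in hibernating and 6.41 and 6.70 in active muscle. The states did not overlap, and the change was 0.57 ± 0.21 (0.68 in Tia and 0.45 in Star, adjusted p = 0.549). SLC40A1, the iron exporter ferroportin, was at 11.3 and 10.6 RPKM against 8.71 and 8.36, again without overlap, at 0.34 ± 0.20 (adjusted p = 0.639).

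SLC41A3, of a family of magnesium carriers, was lower in hibernation with 8.34 and 10.5 RPKM against 11.6 and 11.3, a change of -0.27 ± 0.22. SLC30A9, a member of the zinc carrier family ZnT, was at 8.59 and 5.23 RPKM against 5.80 and 5.17, so that the difference lay in Tia (0.53, and 0.02 in Star). The metal carriers with the lowest mean levels were SLC39A7, a zinc carrier of the endoplasmic reticulum, and SLC11A1, a carrier of phagosomes, at 1.04 and 1.47 RPKM in the hibernating muscle of Tia. Both were named after their values were seen.

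Of the 4 genes for carriers of monocarboxylates and fatty acids, 2 were lower in both bears and 2 went in opposite directions. SLC27A1, the fatty acid transport protein FATP1, was at 20 and 26.6 RPKM in hibernating and 20.3 and 26.4 in active muscle, a change of 0.00 ± 0.25. The bears differed here and the states did not separate, and all 3 transcripts overlapped between states. SLC16A1, the lactate carrier MCT1, was at 6 and 6.80 RPKM against 11.2 and 5.38, with -0.85 in Tia and 0.31 in Star, and its 2 transcripts gave nearly the same values.

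Carriers of nucleosides, nucleotide sugars, vitamins and anions were the class with the most increases, with 4 of 7 genes higher and 2 lower in both bears. This stands beside 48.7% and 16.1% of all genes. The class median was 0.23 over genes, beside 0.15 for all genes. Over the 26 transcripts of the class the median was -0.11, because 19 of them belong to SLC29A1. SLC23A3, an orphan member of the family of ascorbate carriers, had the largest increase of all carrier genes. It was at 4.78 and 5.97 RPKM in hibernating and 2.48 and 3.25 in active muscle, and increased by 0.82 in Tia and 0.79 in Star (0.81 ± 0.25, adjusted p = 0.541).

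SLC10A3, an orphan member of the family of bile acid carriers, was at 7.98 and 7.60 RPKM in hibernation and 3.60 and 5.88 in activity. The states did not overlap, though the active bears differed, and the change was 0.70 ± 0.28 (adjusted p = 0.549) and 0.38 without the active muscle of Tia. SLC29A1, the nucleoside carrier ENT1, was at 4.45 and 4.14 RPKM against 6.45 and 3.52. All of its 19 transcripts were lower in Tia (-0.49 to -0.17) and higher in Star (0.08 to 0.25) in hibernation.

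Most genes had 1 transcript, and 12 had several, with 57 transcripts in all. In 4 of the 12, SLC27A1, SLC38A4, SLC44A1 and SLC4A2, the transcripts went in different directions within a bear. Transcripts of a gene may share reads and are not independent values.

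**Figure D5:**
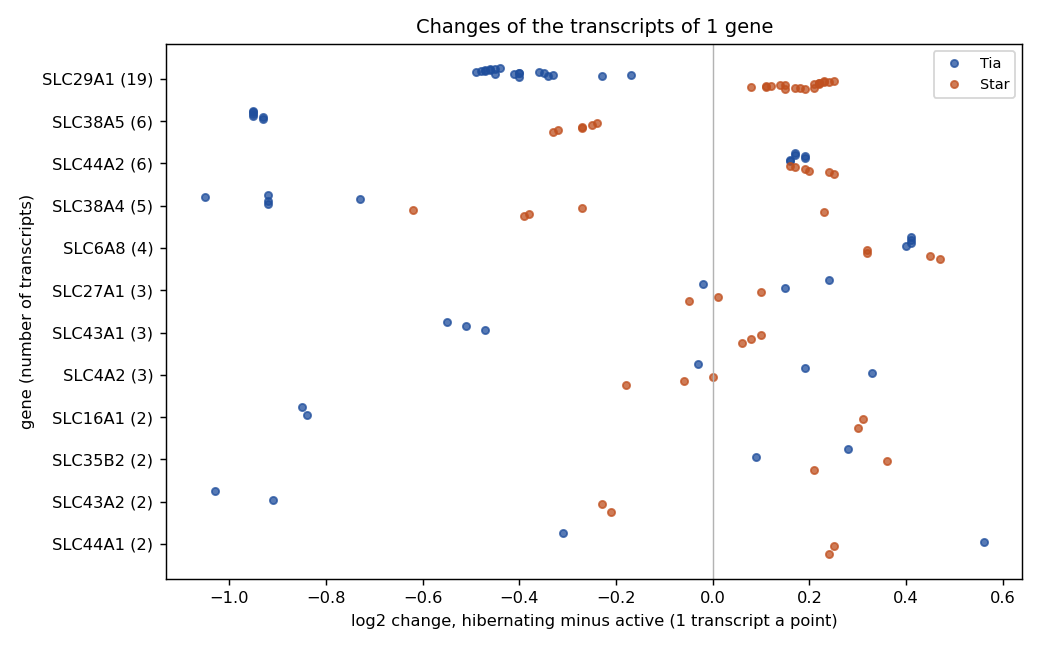
Log2 change, hibernating minus active, of the transcripts of the 12 carrier genes that have several, 1 point per transcript and bear, with the number of transcripts after each name. Transcripts of SLC29A1 lie at -0.49 to -0.17 in Tia and at 0.08 to 0.25 in Star, and those of SLC38A5 and SLC38A4 lie left of 0 in Tia.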

How the data were processed

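RNA came from gastrocnemius biopsies of 2 grizzly bears, active (October) and hibernating (February). The authors assembled 454 and paired-end Illumina reads de novo (Newbler 2.3, SOAPdenovo), named transcripts by BLAST against human proteins of Ensembl 66 (e-value up to 1e-10) and aligned single-end reads with SOAP2, allowing at most 2 mismatches. The deposited values are RPKM with transcript lengths. Strand, the handling of reads that fit several transcripts and whether the single-end libraries were normalized by nuclease are not given in the sources used here. Nuclease normalization would lower abundant transcripts more than rare ones. A single-end sample in the labels holds both bears, and the table has a column for each bear. Pooled and paired-end samples were not analysed here.

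From the RPKM, log2(RPKM + 0.5) of 2 hibernating and 2 active libraries was compared with limma (version 3.58.1, run in R 4.3.3, with a trend in the prior variance and Benjamini-Hochberg adjustment over 9093 annotated transcripts). The fit was also run on simulated data with changes larger than the mean change of any carrier and no pairing by bear. That run does not show how the fit performs at the changes given here. The score compared each ratio and difference with 53228 differences between bears within a state. Reads were recovered from steps of low values of transcripts up to 400 bases (95.8% to 97.5% whole within 0.1 read) to describe depth only. Both libraries of a bear stem from 1 animal, and the bear therefore pairs the samples. The bears' differences in the 2 states had r of 0.36 across annotated transcripts and 0.21 across members, and the alternatives include a replicate block for the animal.

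A gene was read by its transcript with the most reads. Named were 30 listed carriers, the 5 highest, the 6 largest increases and declines shared by both bears, those with an unadjusted p under 0.05 or a score of at least 0.8, and those moving 1.5-fold in opposite directions. Members, classes and lists were chosen with earlier results of these data known. Alternatives covered the pseudocount, scaling, thresholds, an RPKM minimum, the block, the prior, the choice of transcripts and each library or bear left out. A few named genes and their values are not reported here, though they remain in the counts. Plots were drawn with matplotlib 3.10.9 in Python 3.11.15.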

Additional observations from a re-analysis of the deposited data

Results flagged for a closer look

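SLC22A18AS, the name of an antisense partner of a carrier gene, changed in opposite directions in the bears. It was at 441 RPKM in the hibernating and 2959 in the active muscle of Tia, and at 1969 RPKM in the hibernating and 435 in the active muscle of Star. The log2 changes of -2.75 and 2.18 differed by -4.92 (Tia minus Star), and this difference was not tested, since each bear has 1 library per state. Its mean level was the 20th highest of 4873 genes. The name rests on similarity to a human protein and was not found among the names of the bear annotation, so the identity of this transcript is uncertain. Strand is not stated for these libraries either, so reads of this name and of its partner cannot be told apart.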

How the results depend on the processing

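With 2 libraries a state, single values carry large errors, and median-ratio scaling moved the median change of all genes from 0.15 to 0.00. Carriers at 1 to 3 RPKM are the least certain, because the table holds nothing under 1. Of 490 values of 36 named genes under the alternatives, 10 were counted as reversed, 87 as moved by more than 1 SD and 393 as staying within it. A change of sign was counted as reversed only in genes whose bears moved the same way. Sign changes of other genes are not among the 10, such as SLC16A1, from -0.27 to 0.23 without the active muscle of Tia. The SD is that of a gene's changes in the 2 bears, so genes whose bears differ more allow wider moves. Leaving out a bear stays within this SD for any gene by construction. The cause was not tested where values moved, apart from the fewer transcripts and libraries that some settings leave.

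Under median-ratio scaling, upper-quartile scaling and the replicate block, the unadjusted calls were 13, 13 and 12 against 7 (6.91%, 6.93% and 13.5% of all annotated transcripts against 9.08%), and the adjusted calls stayed at 0. The replicate block left no adjusted call. Leaving out 1 library, and assuming that the lone library varies like the others, gave 5 to 15 unadjusted calls without a hibernating library (Tia 6.53% and Star 16.2% of all) and 2 to 18 without an active one (Tia 4.49% and Star 8.05%), and 0 to 1 adjusted calls (1.01% of all without the hibernating muscle of Star). The score was reached by 5 transcripts under each scaling (3.57% and 3.61% of all) and by 1 with a mean RPKM of at least 5 (4.31%), against 3 (3.61%). States did not overlap, higher and lower, for 8 and 30 transcripts with median-ratio scaling (19.0% and 18.1% of all), 8 and 32 with upper-quartile scaling (17.1% and 20.5%), 12 and 10 with 1 transcript a gene (35.8% and 8.11%), and 13 and 10 with summed transcripts (35.7% and 7.98%), against 21 and 18 (34.6% and 8.80%), and 9 were lower at a mean RPKM of at least 5 (9.16%). A change of 1.5-fold in both bears was seen higher in 1 transcript with a pseudocount of 1 (2.61%) or with either scaling (1.28% and 1.19%) and in 0 at a mean RPKM of at least 5 (4.39%), against 2 (3.55%), and a threshold of 2-fold left 0 higher (0.385%) and 2 lower (0.308%), against 4 lower (1.04%).

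Class medians over transcripts under median-ratio and upper-quartile scaling were -0.45 and -0.48 for hexoses (from -0.29), 0.01 and -0.02 for organic cations (from 0.17), -0.16 and -0.19 for ions (from -0.01), -0.18 and -0.22 for metals (from -0.04), and -0.24 and -0.27 for monocarboxylates and fatty acids (from -0.09). At a mean RPKM of at least 5 they were -0.06 for hexoses, -0.29 for ions, 0.31 for metals and 0.70 for the class of nucleosides (from -0.11). With 1 transcript a gene, as with the sum, organic cations had -0.21. Without 1 bear, hexoses ranged from -0.29 (without Tia) to -0.21 (without Star) and ions from 0.00 to 0.19, while the class of nucleosides turned from 0.21 without Tia to -0.40 without Star and amino acids had -0.16 and -0.73.

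Values counted as reversed were 0.08 and 0.00 for SLC2A10, -0.06 for SLC30A9, 0.12 for SLC7A2, and 0.06 and 0.04 for SLC4A2. These came on leaving out the hibernating muscle of Tia or, in SLC2A10 and SLC4A2, the active muscle of Star. The others were 0.02 for SLC4A2 with summed transcripts, -0.03 and -0.07 for SLC3A2 under the 2 scalings, and -0.02 for SLC44A2 under the upper quartile.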
